A study of Mus musculus with 24 samples.

Results

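The 10 genes described here mark Schwann cells, the glia of peripheral nerve, and the nerve tissue around them: Sox10, Egr2, S100b, Erbb3, Cdh19, Cnp, Pllp, Scn7a, L1cam and Ngfr. They were chosen by name and make up 10 of the 47643 gene rows of a muscle count table, and each was found under a single Ensembl gene ID. The table holds 3′-end RNA sequencing counts from plantaris, a fast muscle of the hindlimb, of wild type C57BL/6 mice. 11 samples came from mice kept in normal air, and 13 from mice that had 16 weeks of tobacco smoke exposure. Both groups shared the strain, genotype and muscle, no sex or age was given for either, and the series title names chronic activity of the aryl hydrocarbon receptor, a sensor of smoke components, and muscle impairment as its subject. The labels number the replicates without saying that each was a separate animal, so p-values measure the spread between these samples.

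Schwann cells arise from the neural crest and follow axons into the muscle. Sox10 is the transcription factor that sets and keeps their identity, and in cells that wrap a single large axon it works with Egr2 to switch on myelin genes. Erbb3 is the receptor through which Schwann cells sense neuregulin on the axon, and its signal controls their number and the thickness of myelin. Schwann cells that hold several small axons without myelin, and the terminal cells that cap the neuromuscular junction, keep immature markers such as Ngfr and L1cam. A piece of muscle carries nerve branches as a minor part of its tissue, so these genes are read from few transcripts. In such bulk tissue, fewer Schwann cells and less RNA per Schwann cell cannot be told apart.

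Total counts ranged from 2515697 to 4528845 per library, so that 3 reads corresponded to between 0.665 and 1.15 CPM (reads scaled to a common library total, with libraries adjusted by the trimmed mean of M values, TMM). The marker genes of fast muscle fibre summed to between 173968 and 270036 CPM in air and between 183338 and 232757 CPM in smoke. Fast skeletal muscle was thus present in all samples, though these genes do not single out plantaris. In the column headers the smoke and air libraries held separate runs of sample-sheet numbers, and an effect of that order cannot be told apart from one of smoke. Smoke replicates 2, 10 and 12 stood apart by myelin genes. They held the 3 highest values of Pmp22, at 142, 140 and 116 CPM against a mean of 33.2 ± 6.21 CPM in air (SD, n = 11), and also those of Prx, Drp2 and Ncmap. Smoke replicate 13 was next for Pmp22, at 69.3 CPM. Differences in level between the groups that rest on these 3 libraries are given with and without them, a choice made after their values were seen. Leaving them out of the smoke group lowers the smoke mean of any gene that is highest in them, so a lost call there is no test. Correlations within smoke were not computed without them.

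Of the 10 genes, 4 passed the expression filter (S100b, Cnp, Pllp and Scn7a), and the other 6 were too low for it. The promoter stretches of these 4 are shown because Cnp varied together with S100b and with Pllp across the muscles, and Scn7a is set beside them. RefSeq promoter entries (GRCm38.p6) were found for 7 of the 10 genes, which are Egr2, S100b, Cnp, Pllp, Scn7a, L1cam and Ngfr, with 12 start sites in all. Each stretch is 200 bases long, written 5′ to 3′ on the strand of the gene and ending 51 bases before the start site. Capitals mark a match to ACAAAG, the core of SOX binding motifs, or to GCGNGGGCG, the motif of the EGR factors. Both strands were searched, and these motifs do not overlap each other in the stretches shown. The S100b stretch is chr10:76253586-76253785 on the plus strand, that of Cnp is chr11:100574689-100574888 on the plus strand, that of Pllp is chr8:94696293-94696492 on the minus strand and that of Scn7a is chr2:66784961-66785160 on the minus strand.
S100b: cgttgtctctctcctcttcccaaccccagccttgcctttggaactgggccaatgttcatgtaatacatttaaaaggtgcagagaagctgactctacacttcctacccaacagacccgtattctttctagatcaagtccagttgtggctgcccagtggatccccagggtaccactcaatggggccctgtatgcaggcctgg
Cnp: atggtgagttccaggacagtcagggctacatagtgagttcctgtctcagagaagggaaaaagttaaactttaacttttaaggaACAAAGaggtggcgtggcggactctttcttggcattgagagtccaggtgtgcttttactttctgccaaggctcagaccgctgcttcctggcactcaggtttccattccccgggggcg
Pllp: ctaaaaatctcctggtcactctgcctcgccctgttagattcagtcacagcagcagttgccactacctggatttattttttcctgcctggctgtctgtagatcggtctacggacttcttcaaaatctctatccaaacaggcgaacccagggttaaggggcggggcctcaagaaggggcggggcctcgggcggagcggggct
Scn7a: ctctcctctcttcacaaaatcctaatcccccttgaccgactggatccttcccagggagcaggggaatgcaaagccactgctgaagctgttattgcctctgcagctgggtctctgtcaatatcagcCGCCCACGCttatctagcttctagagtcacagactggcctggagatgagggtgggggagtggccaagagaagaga

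The Cnp stretch held 1 ACAAAG, 167 bases before the start site, and the Scn7a stretch held 1 GCGNGGGCG on the opposite strand, 125 bases before its start. The stretches of S100b and Pllp held neither string, nor did the 8 of Egr2, L1cam and Ngfr. Among 32514 RefSeq promoter stretches of the same length, 13.6% held ACAAAG and 3.07% held GCGNGGGCG. A match describes letters in this window, and no binding was measured.

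The group comparison asked whether any of these transcripts differed after the smoke exposure. None of the 4 tested genes did so at an adjusted p under 0.05 in edgeR's quasi-likelihood test, adjusted by Benjamini-Hochberg over all 10159 tested genes. Of all tested genes, 195 passed (1.92%), with 74 higher (0.728%) and 121 lower (1.19%) in smoke. S100b, Cnp and Pllp reached an unadjusted p under 0.05, as did 15.5% of all tested genes. DESeq2 also called 0 of the 4 (3.18% of all genes) and had the same 3 at an unadjusted p under 0.05 (15.4% of all genes). Limma voom called 0 of the 4 (1.72% of all genes) and had S100b alone at an unadjusted p under 0.05 (15.6% of all genes). The groups overlapped in CPM for each of the 10 genes, and only 0.0295% of all tested genes had groups that did not.

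**Figure D1:**
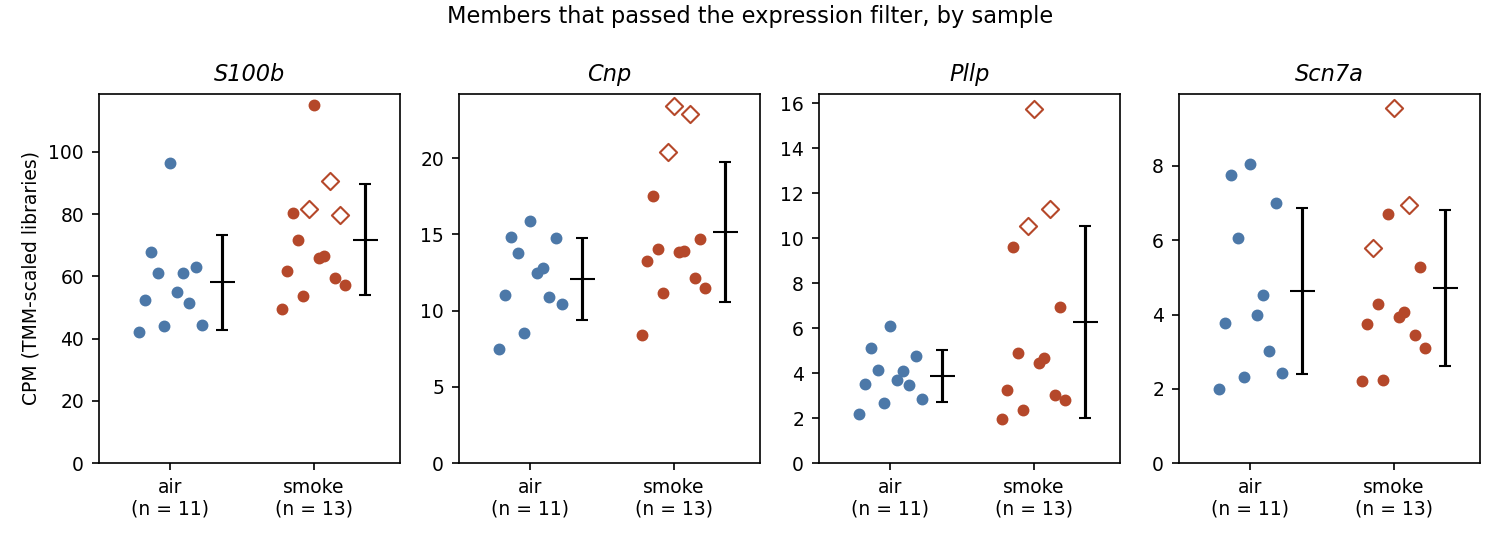
CPM of S100b, Cnp, Pllp and Scn7a in 11 air and 13 smoke samples, 1 point a sample, with the group mean and SD beside the points. Open diamonds are smoke replicates 2, 10 and 12, which hold the 3 highest values of Cnp and of Pllp and not of S100b.

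S100b encodes a calcium-binding protein that is abundant in the cytoplasm of Schwann cells, and its gene (ENSMUSG00000033208) lies on chromosome 10 from 76253853 to 76261159 on the plus strand in GRCm38. In air its level ran from 42.1 CPM through a median of 55.0 to 96.4 CPM, and in smoke from 49.5 through 66.6 to 115 CPM. The ranges overlapped almost fully, with 1 smoke sample above the highest air sample, although 10 of 13 smoke samples exceeded the mean of the air group. The means were 58.1 ± 15.3 CPM in air (SD, n = 11) and 71.8 ± 17.8 CPM in smoke (SD, n = 13). The log2 fold change was 0.31 (SE 0.12, 95% interval 0.059 to 0.55), a 1.24-fold difference that did not pass edgeR's test (adjusted p = 0.195). S100b had from 140 to 349 reads per library, the most of the 10 genes, and its coefficient of variation of 26.3% in air and 24.8% in smoke was above the 7.05% and 6.43% that counting alone would give. The highest values belonged to smoke replicate 6 and air replicate 6. Without smoke replicates 2, 10 and 12 the log2 fold change of S100b was 0.23 (SE 0.13, adjusted p = 0.441 in edgeR's test). S100b overlaps Dip2a on the opposite strand, and whether strand was used in counting is not given in the sources used here.

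Cnp encodes the nucleotide phosphodiesterase of non-compact myelin, the cytoplasm-filled channels of the sheath (ENSMUSG00000006782; chromosome 11, 100574904 to 100591729, plus strand). Its level in air ran from 7.46 through a median of 12.5 to 15.9 CPM, and in smoke from 8.43 through 13.9 to 23.4 CPM. The low ends and medians lay close together, and 4 smoke samples lay above all air samples. The means were 12.1 ± 2.68 CPM in air (SD, n = 11) and 15.2 ± 4.60 CPM in smoke (SD, n = 13). The log2 fold change was 0.32 (SE 0.15, 95% interval 0.020 to 0.62) with an adjusted p of 0.279 in edgeR's test. Smoke replicates 10, 12 and 2 gave the top values of 23.4, 22.9 and 20.4 CPM. Without them the log2 fold change of Cnp was 0.11 (SE 0.13, adjusted p = 0.799 in edgeR's test). Cnp overlaps Dnajc7 on the opposite strand.

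Pllp encodes plasmolipin, a small membrane protein of compact myelin (ENSMUSG00000031775; chromosome 8, 94674894 to 94696278, minus strand, with Gm45767 on the opposite strand). It ran in air from 2.20 through a median of 3.69 to 6.11 CPM, and in smoke from 1.96 through 4.66 to 15.7 CPM. The smoke range enclosed the air range on both sides, with 5 smoke samples above the highest air sample and the lowest sample of all also in smoke. The means were 3.87 ± 1.15 CPM in air (SD, n = 11) and 6.27 ± 4.26 CPM in smoke (SD, n = 13). The spread in air, 29.6% of the mean, was near the 27.2% that counting alone gives, while in smoke it was 68.0% against 22.4%. The log2 fold change was 0.64 (SE 0.28, 95% interval 0.072 to 1.21, adjusted p = 0.243 in edgeR's test). Smoke replicates 10, 12 and 2 were again the top 3, at 15.7, 11.3 and 10.5 CPM, followed by smoke replicate 5 at 9.61 CPM. Without those 3 the log2 fold change of Pllp was 0.14 (SE 0.24, adjusted p = 0.864), and limma voom on all samples gave 0.37 (adjusted p = 0.564).

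Scn7a encodes an atypical sodium channel, known as Nax, that is expressed by non-myelinating Schwann cells (ENSMUSG00000034810; chromosome 2, 66673425 to 66784914, minus strand). Its level ran in air from 2.00 through a median of 3.98 to 8.05 CPM, and in smoke from 2.20 through 4.08 to 9.57 CPM. Ranges and medians lay on top of each other, and 5 of 13 smoke samples exceeded the air mean. The means were 4.63 ± 2.24 CPM in air (SD, n = 11) and 4.72 ± 2.10 CPM in smoke (SD, n = 13). The log2 fold change was -0.0095 (SE 0.24, 95% interval -0.50 to 0.48, adjusted p = 0.992 in edgeR's test). Without smoke replicates 2, 10 and 12 it was -0.27 (SE 0.24, adjusted p = 0.688 in edgeR's test). Within both groups the spread was wide, at 48.4% and 44.4% of the mean, against 24.6% and 25.2% from counting alone.

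Sox10 (ENSMUSG00000033006; chromosome 15, 79154908 to 79165240, minus strand) had the most reads of the genes under the filter. It had from 1 through a median of 7 to 11 reads per air sample and from 5 through 10 to 17 per smoke sample, with totals of 72 and 122 reads. 6 smoke samples lay above the highest air sample in CPM, 12 of 13 lay above the air median, and 3 air samples lay below the lowest smoke sample. The means were 1.83 ± 0.780 CPM in air (SD, n = 11) and 2.78 ± 0.991 CPM in smoke (SD, n = 13). Fitted without the expression filter, Sox10 had a log2 fold change of 0.55 (SE 0.28, 95% interval 0.0051 to 1.10), with an unadjusted edgeR p of 0.0480 and an adjusted p of 0.476 over 27644 genes, of which 0.727% were called. The highest Sox10 value was in smoke replicate 1, at 4.77 CPM, a library with the lowest Pllp value of all 24.

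Egr2, Sox10's partner in the myelin programme and also an immediate-early gene of many cell types, had 22 reads in all air samples and 39 in all smoke samples (ENSMUSG00000037868; chromosome 10, 67535475 to 67542188, plus strand). It ran from 0 through 2 to 4 reads per air sample and from 0 through 3 to 9 per smoke sample, and 10 air and 9 smoke samples had 3 reads or fewer. The top count of 9 was in smoke replicate 2. The fit without filter gave Egr2 a log2 fold change of 0.60 with an SE of 0.48 (edgeR adjusted p = 0.580).

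Erbb3, the neuregulin receptor, had 64 reads in air and 79 in smoke (ENSMUSG00000018166; chromosome 10, 128567523 to 128589652, minus strand, with Mir6917 inside it on the same strand). It ran from 2 through 5 to 13 reads per air sample and from 3 through 6 to 9 per smoke sample, so the extremes at both ends were air samples. The fit without filter gave Erbb3 a log2 fold change of 0.090 (SE 0.31, 95% interval -0.52 to 0.70, edgeR adjusted p = 0.937).

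Cdh19, a cadherin typical of Schwann cell precursors and of resting Schwann cells, was the sparsest of the 10, with 16 reads in air and 27 in smoke (ENSMUSG00000047216; chromosome 1, 110888326 to 110977584, minus strand). It ran from 0 through 1 to 3 reads per air sample and from 0 through 2 to 4 per smoke sample, and 11 samples of each group had 3 reads or fewer. At this depth a difference was not detectable, with a log2 fold change of 0.51 and an SE of 0.51 (edgeR without filter, adjusted p = 0.639). Gm36944 and Gm38255 lie within Cdh19 on the same strand.

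L1cam and Ngfr mark non-myelinating and immature Schwann cells. L1cam encodes an adhesion molecule of axons and of the glia around small axons, and had 40 reads in air and 61 in smoke (ENSMUSG00000031391; chromosome X, 73853778 to 73896105, minus strand, overlapping Arhgap4 on the same and Avpr2 on the opposite strand). It ran from 0 through 4 to 6 reads per air sample and from 1 through 5 to 9 per smoke sample, and the log2 fold change of L1cam was 0.38 (SE 0.37, adjusted p = 0.642, edgeR without filter). Ngfr encodes the p75 neurotrophin receptor, and had 38 reads in air and 32 in smoke (ENSMUSG00000000120; chromosome 11, 95568818 to 95587735, minus strand). It ran from 0 through 4 to 5 reads per air sample and from 0 through 2 to 5 per smoke sample. 9 of 13 smoke samples lay below the air mean of Ngfr, and its log2 fold change of -0.44 had an SE of 0.45 and a 95% interval from -1.34 to 0.47 (edgeR without filter, adjusted p = 0.661). The 2 groups overlapped for both genes, with 2 smoke samples above the highest air sample in CPM for L1cam and 1 for Ngfr.

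**Figure D2:**
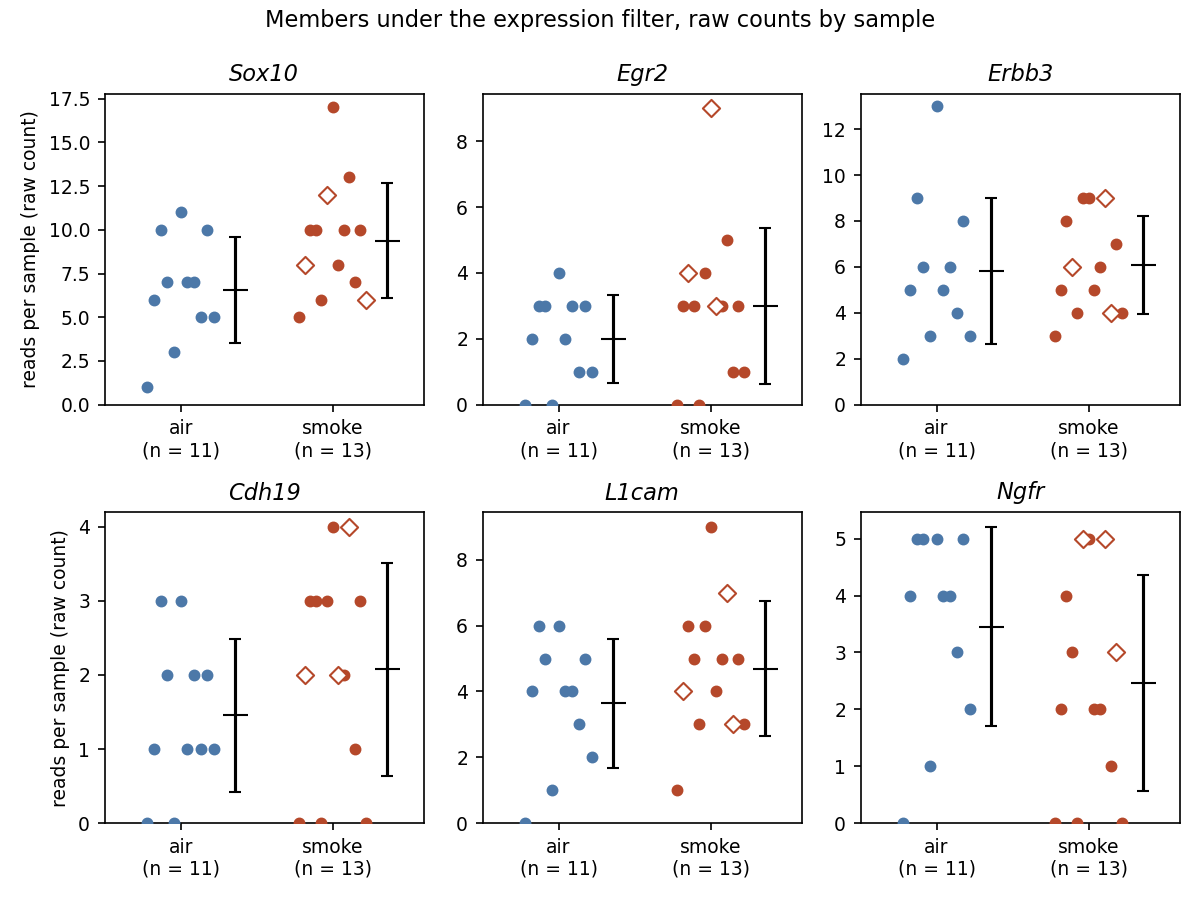
Raw reads per sample of the 6 genes under the expression filter, 11 air and 13 smoke samples, with the group mean and SD. Open diamonds are smoke replicates 2, 10 and 12; Sox10 reaches 17 reads, while Cdh19 stays at 4 or below.

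The other genes of the nerve were taken in fixed lists by role and read from the same fit. Among 14 structural myelin genes, 9 were tested and 4 rose in smoke in edgeR's test, with none lower, where 1.92% of all tested genes were called. Limma voom on all samples and edgeR with an index of circadian clock genes as covariate called 0 of the 9. With that covariate, calls over all genes fell as well, from 195 to 32. Single libraries mattered too: 1 was called without air replicate 3, 5, 8, 9 or 10 or smoke replicate 2, 10 or 12, and 2 without air replicate 1, 4 or 7 or smoke replicate 6. These were Ncmap, a small membrane protein of non-compact myelin (log2 fold change 1.76, SE 0.43, adjusted p = 0.0242), Prx and Drp2, partners in the complex that links the sheath to its basal lamina (1.48 and 1.42, adjusted p = 0.0362 and 0.0399), and Pmp22, a protein of compact myelin (0.88, adjusted p = 0.0481). All 9 tested myelin genes had a positive log2 fold change, with a median of 0.76 against 0.0066 over all tested genes, and 51.6% of all tested genes were positive. The fold changes of S100b, Cnp and Pllp lay below this median. Without smoke replicates 2, 10 and 12 none of these 9 was called in edgeR's test, and the log2 fold changes were 0.74 for Ncmap, 0.49 for Prx, 0.52 for Drp2 and 0.28 for Pmp22 (adjusted p from 0.206 to 0.376). These 3 libraries were set apart by their high values of these 4 genes, so smaller fold changes without them were fixed in advance. Earlier results of these data had already shown the myelin genes, so their direction is given for comparison only.

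**Figure D3:**
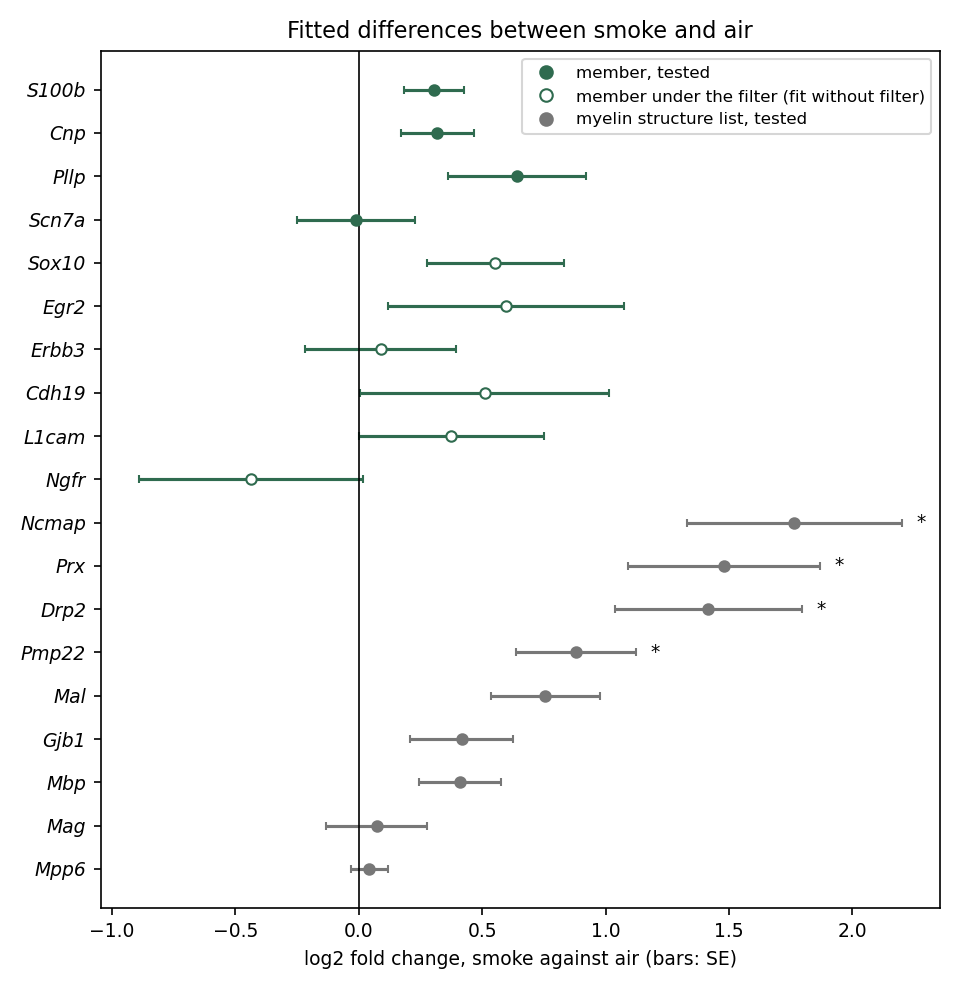
Log2 fold change of smoke against air with its SE for the 10 nerve genes (green; open circles are fits without the expression filter) and 9 tested myelin structure genes (grey). Stars mark an edgeR adjusted p under 0.05, which 4 myelin genes and none of the 10 reached.

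Around the Erbb3 receptor, 10 genes of neuregulin signalling were tested and none was called, with a median log2 fold change of 0.024. The smallest p-values there were those of Gab1, a docking protein below receptor tyrosine kinases (0.40, adjusted p = 0.174), and Lrig1, a brake on ErbB receptors (0.21, adjusted p = 0.393). The ligand gene Nrg1 had 10 reads in all air and 7 in all smoke samples, and the co-receptor gene Erbb2 had 84 and 86. Around Sox10 and Egr2, 13 transcription factors and regulators of the Schwann cell were tested and none was called in edgeR's test, with a median of -0.045. The smallest p-values were those of Jun, which drives the repair state of Schwann cells and acts in many other cells (-0.37, adjusted p = 0.0784, and 0.0235 in edgeR without the expression filter, where it was called), and Srebf1, a regulator of lipid synthesis (0.50, adjusted p = 0.114).

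Of 13 tested genes of axon-glia adhesion and the node, 1 rose in edgeR's test (DESeq2 called Cadm1 as well). It was Gldn, gliomedin, which Schwann cell microvilli place at the node of Ranvier, at 1.94 ± 0.847 CPM in air (SD, n = 11) and 4.43 ± 2.70 CPM in smoke (SD, n = 13), 1.14 higher on the log2 scale (SE 0.28, adjusted p = 0.0261 in edgeR's test). Without smoke replicates 2, 10 and 12, Gldn did not pass the expression filter and so had no test there. Fitted without those replicates and without the filter, Gldn was 0.67 higher on the log2 scale (SE 0.28, unadjusted edgeR p = 0.0178, adjusted p = 0.366). With the clock index as covariate it was 0.58 (SE 0.43, adjusted p = 0.571 in edgeR's test). Among 5 tested genes of non-myelinating and repair Schwann cells none was called in edgeR's test, and the smallest p-values were those of Ednrb (-0.56, adjusted p = 0.0732; DESeq2 called it) and Plekhb1 (0.17, adjusted p = 0.406). Of 7 tested axonal transcripts none was called, with Stmn2 at -0.26 (adjusted p = 0.499) and Snap25 at 0.32 (adjusted p = 0.557). Of 6 tested genes of the nerve sheath none was called, with Itgb4 at 0.47 (adjusted p = 0.267) and Tjp1 at 0.20 (adjusted p = 0.705).

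The 3 libraries did not lift all nerve genes alike. Relative to the air mean, smoke replicates 2, 10 and 12 held Prx at 11.2, 5.30 and 6.81 times, Pmp22 at 4.28, 4.21 and 3.49 times, Pllp at 2.72, 4.06 and 2.91 times, and Cnp at 1.69, 1.94 and 1.90 times. Their S100b ranked 3rd, 4th and 6th of 24 libraries, at 90.6, 81.6 and 79.6 CPM. Sox10 in the same libraries was at 3.83, 2.20 and 2.58 CPM, ranks 3, 13 and 10, and Erbb3 at 2.87, 2.20 and 1.29 CPM, ranks 2, 7 and 17. Scn7a was highest of all in smoke replicate 2, at 9.57 CPM, and ranked 5th and 8th in replicates 10 and 12. The myelin gene Mag lay at 0.90, 0.92 and 0.86 times the air mean there, and the neurofilament gene Nefm at 0.69, 0.71 and 0.53 times. Not all genes of these kinds did so: the myelin gene Mbp was at 2.12, 1.62 and 1.71 times, and the neurofilament gene Nefh at 0.95, 1.09 and 0.39 times. Pllp and Cnp were high where Prx and Pmp22 were highest, while Mag and Nefm, chosen after their values were seen, were below the air mean there.

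**Figure D4:**
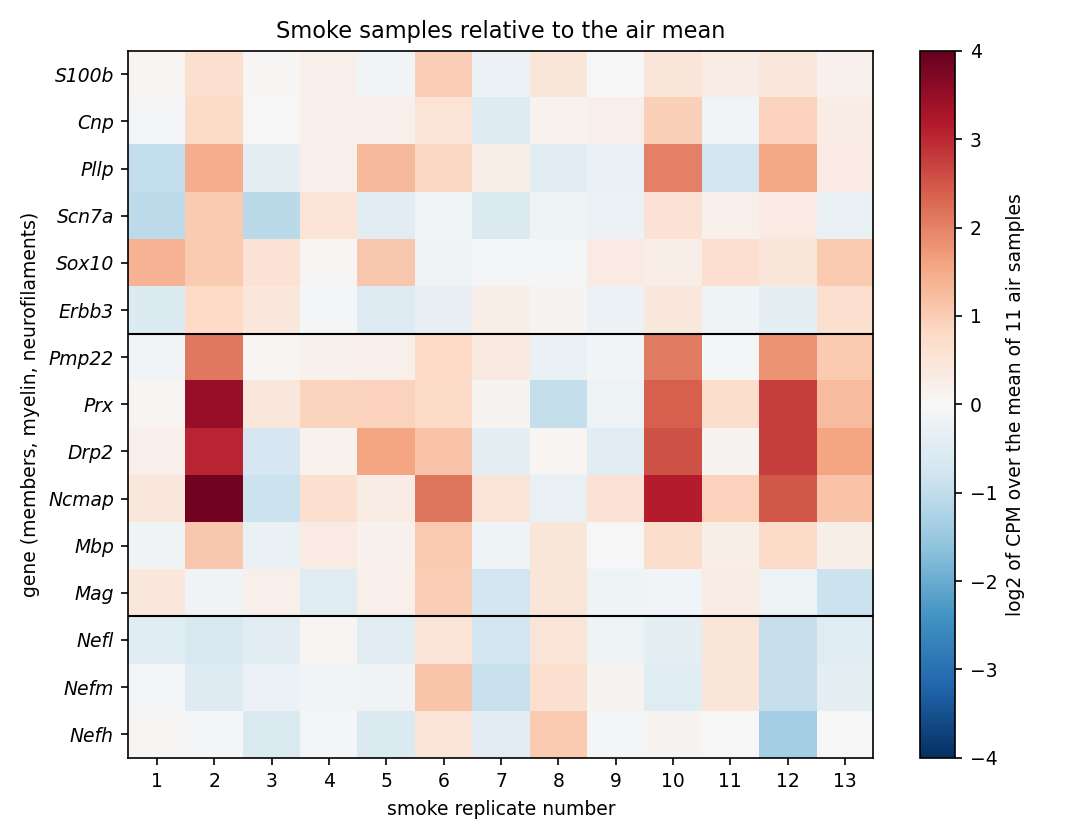
Log2 of CPM over the mean of 11 air samples (colour, -4 to 4) for 6 of the 10 genes, 6 myelin genes and 3 neurofilament genes in each of 13 smoke samples. Replicates 2, 10 and 12 are red for Pmp22, Prx, Drp2, Ncmap and Pllp, and pale red for Cnp and Mbp. Mag is near white and Nefl pale blue there.

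The way these genes varied among muscles of the same group was described on deviations from the group means in log2 CPM, over 24 samples. The points share the library and its depth, and low genes carry counting scatter, so these correlations are descriptions with no test. Cnp and Pllp varied together most (Pearson r = 0.71, Spearman rho = 0.76), with r of 0.56 within air and 0.78 within smoke. Cnp and S100b were similar, at r = 0.69 (rho = 0.70), with 0.71 within air and 0.68 within smoke. S100b and Pllp followed at r = 0.40 (rho = 0.50), with 0.58 within air and 0.37 within smoke. Leaving out the 2 samples farthest from the Cnp median gave 0.71 for Cnp with Pllp, and doing so by the S100b median gave 0.71 for S100b with Cnp and 0.44 for S100b with Pllp. Smoke replicates 2, 10 and 12 held the highest Cnp and Pllp, and leaving out 2 samples cannot remove them all. These correlations were not computed without those libraries, so how far they rest on them is not known.

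Scn7a differed by group in how it varied with the other 3. Over all samples its r was 0.43 with Pllp, 0.28 with Cnp and 0.092 with S100b. These became 0.35, 0.17 and 0.32 once the 2 samples farthest from the median of Pllp, Cnp or S100b were left out. Within air Scn7a had r of 0.16 with Pllp, -0.23 with Cnp and -0.39 with S100b, and within smoke 0.60, 0.68 and 0.56. The difference between the groups was not tested. The smoke values include replicates 2, 10 and 12, which held the 3 highest Cnp and Pllp, with Scn7a highest in replicate 2. They were not computed without those libraries, so how far the contrast with air rests on them is not known.

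**Figure D5:**
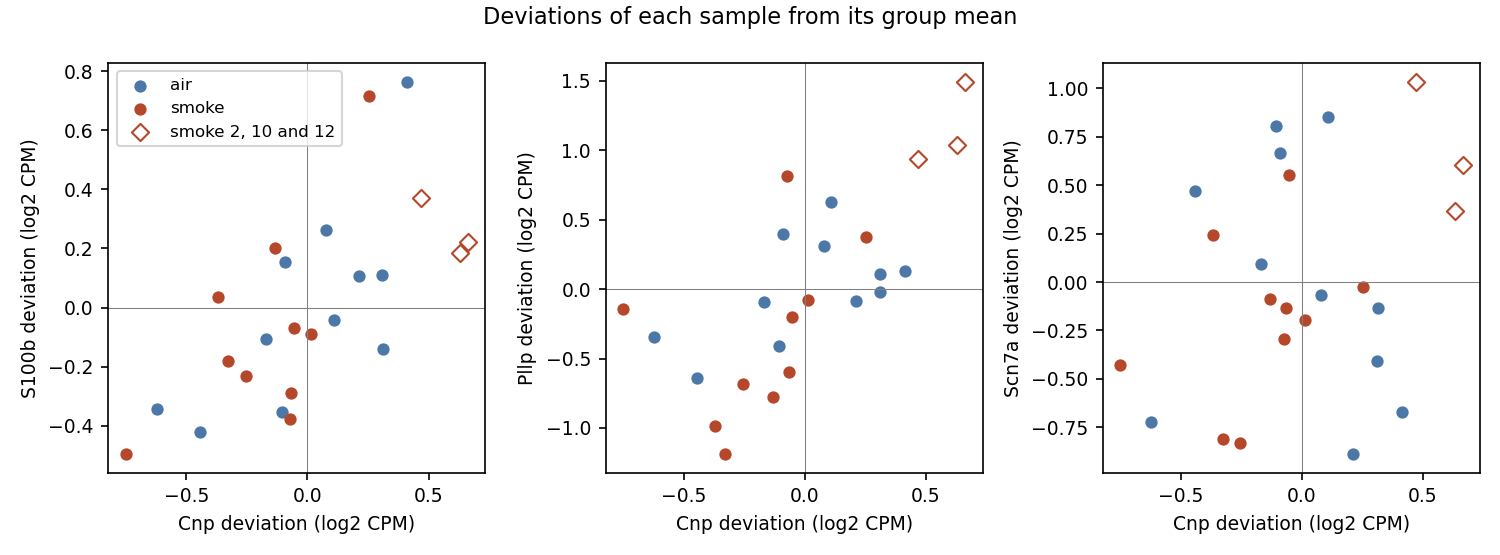
Deviation of S100b, Pllp and Scn7a from the group mean (vertical axes, log2 CPM) against that of Cnp (horizontal axis, log2 CPM) in 11 air and 13 smoke samples. S100b and Pllp climb with Cnp in both groups; Scn7a does so in smoke (r = 0.68) and not in air (r = -0.23).

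The same was read against the means of 9 tested myelin genes and 7 tested axonal transcripts. The myelin mean had r of 0.74 with S100b (0.86 within air, 0.75 within smoke), 0.78 with Cnp (0.53 and 0.88), 0.72 with Pllp (0.38 and 0.78) and 0.36 with Scn7a (-0.28 and 0.72). The axonal mean had r of 0.64 with S100b (0.86 within air, 0.42 within smoke), 0.13 with Cnp (0.57 and -0.20), -0.18 with Pllp (0.46 and -0.49) and -0.19 with Scn7a (-0.23 and -0.14). Within air, S100b, Cnp and Pllp thus all had positive values with both means, and within smoke Cnp and Pllp were negative with the axonal mean. The pooled value of S100b with the axonal mean rested on air replicate 6 and smoke replicate 6, which had the 2 highest values of S100b and of Nefm, and was 0.34 once the 2 samples farthest from the S100b median were left out. Against single myelin genes, Pllp within smoke had r of 0.86 with Pmp22, 0.80 with Prx and -0.18 with Mag, and within air 0.053, 0.30 and 0.33. These differences between the groups were not tested, and these 3 myelin genes were chosen after their values were seen. The values within smoke include replicates 2, 10 and 12, which held the 3 highest Cnp, Pllp and Pmp22. They were not computed without those libraries, so how far the contrast with air rests on them is not known.

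Among 10155 other tested genes, the 10 whose deviations followed the mean of S100b, Cnp, Pllp and Scn7a most closely included Scd2 (r = 0.87), Aatk (0.85), Gpm6b (0.83), Ncmap (0.83), Gjb1 (0.79), Apod (0.79), Ptprf (0.78), Gm38124 (0.76) and Ndrg1 (0.75). Their values without the 2 farthest samples ran from 0.62 to 0.81, and the median over all 10155 genes was -0.012, with 369 above 0.5. Scd2 encodes a fatty acid desaturase, Gpm6b a membrane protein of the proteolipid family, Gjb1 the gap junction protein connexin 32 of myelinating Schwann cells and Apod a lipid carrier. Of these, Ncmap and Ndrg1 rose in smoke, Ndrg1 by 0.71 on the log2 scale (SE 0.17, adjusted p = 0.0229 in edgeR's test). By list, the median r with the mean of the 4 genes was 0.72 for the 9 myelin genes, 0.34 for 11 adipocyte genes, 0.12 for 7 axonal transcripts and -0.021 for 7 macrophage genes.

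Some of the 10 genes are also expressed outside nerve, so markers of those other cells were read beside them. S100b is also made by adipocytes. Of 11 tested adipocyte genes 1 fell (Plin4, log2 fold change -0.25, edgeR adjusted p = 0.0481), a call that was lost with upper-quartile scaling, a minimum count of 20, the clock covariate and in at least 12 of 24 fits that left out a sample. All 12 genes of the adipocyte list, tested or not, summed to between 5280 and 7779 CPM in air and between 5828 and 7737 CPM in smoke. The mean of these adipocyte genes had r of -0.044 with S100b, 0.21 with Cnp, 0.45 with Pllp and 0.48 with Scn7a, and Adipoq was at 1.98, 1.57 and 0.93 times the air mean in smoke replicates 2, 10 and 12. The part of adipocyte content in the Pllp and Scn7a values was not tested. Sox10 and Erbb3 are also melanocyte genes, and of 7 melanocyte markers Slc45a2 had 0 reads in all samples, Tyr had 2 in air and 1 in smoke, and Mlana had 0 and 3. The melanocyte list summed to between 11.8 and 19.1 CPM in air and between 10.2 and 22.3 CPM in smoke, and Mitf, the only one tested, had a log2 fold change of -0.032 (adjusted p = 0.938). Egr2 belongs with immediate-early genes, of which 9 others were tested and none was called, with Atf3 at -1.29 (adjusted p = 0.0518) and Dusp1 at -0.45 (adjusted p = 0.135). None of 7 macrophage genes was called, nor any of 10 endothelial genes or 10 fibre genes, and the smallest p-values were those of C1qb and C1qc (-0.30 and -0.24, adjusted p = 0.354 and 0.559), Vwf and Kdr (0.25 and -0.17, adjusted p = 0.280 and 0.303) and Myh2 and Myh4 (-0.27 and 0.16, adjusted p = 0.0627 and 0.228).

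Circadian clock genes differed between the groups as well: of a clock index chosen with earlier results known, Dbp, Per3 and Nr1d2 rose and Nfil3 fell. With this index as a covariate in edgeR, the log2 fold change was 0.28 for S100b, 0.19 for Cnp, 0.74 for Pllp and 0.075 for Scn7a. Adjusted p ran from 0.448 to 0.956, with no call. The SEs were 0.19, 0.23, 0.44 and 0.38, against 0.12, 0.15, 0.28 and 0.24 without the covariate. Genes of the index differed with smoke themselves, so this fit was less precise, and a lost call in it is not a smaller difference by itself. Time of tissue collection was not given, and its part in these values was not tested.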

How the data were processed

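Plantaris RNA was turned into Lexogen QuantSeq 3′ FWD libraries and read on an Illumina HiSeq instrument, per the labels' protocols. This kit reads transcript 3′ ends, so values are not divided by length and levels of different genes are not compared. The authors deposited raw counts per Ensembl gene ID, 1 column per sample. STAR, DESeq2 and mm9 are named in the submitters' processing notes, without role or version. The counter, annotation, strand use and handling of duplicate reads are not given in the sources used here, so the 3-read floors cover counting error only. The intervals of fold changes come from the fit over samples. Symbols, overlaps and coordinates (1-based) came from GENCODE M21 on GRCm38, which matched 47224 of 47643 IDs (99.1%). This build differs from that of the notes, so coordinates describe the annotation and not the reads.

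The test was run in edgeR 4.0.16 (R 4.3.3), with filterByExpr at a minimum count of 10, TMM scaling, and the quasi-likelihood F-test of 13 smoke against 11 air samples without covariates. Benjamini-Hochberg adjustment covered all tested genes. An adjusted p under 0.05 made a call. Genes under the filter were read from a fit without it. Total counts ran from 2515697 to 4528845 per sample. Counting scatter was taken as Poisson. Deviations used log2 CPM with a prior count of 2. On simulated counts for 10050 genes, 200 of them changed, the same procedure recovered 97.9% of 2-fold and 67.3% of 1.5-fold changes. The changed genes were drawn from all tested levels, with the same scatter in both groups. Recovery at the low counts of Pllp and Scn7a was not read separately, and Pllp varied more in smoke than in air.

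The 10 genes and all lists were chosen with earlier results of these data known. Named were all 10, of each list the called genes or, with none called, the 2 with the smallest p, and the 10 genes most like the mean of the 4 tested genes. Further named genes (Mag, Mbp, Lamb2, Cadm1, Nefm, Nefh, Nefl, Adipoq, Nrg1, Erbb2, Tyr, Mlana and Slc45a2) were chosen after their values were seen. Of the neuregulin list, Nrdc matched no row. Genes that are not reported here were left out of the myelin list and of the named genes. Alternatives were DESeq2 1.42.0, limma voom 3.58.1, upper-quartile and RLE scaling, other filters, removal of the 10 most abundant genes, a replicate block, a clock covariate and leaving out each sample. Added after seeing the data were fits without smoke replicates 2, 10 and 12 (for Gldn also without the filter) and on replicates 1 to 11 of both groups.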

Additional observations from a re-analysis of the deposited data

How the results depend on the processing

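Of the genes each alternative tested (10 without a filter, 2 at a minimum count of 20, 4 otherwise), none was called except with the replicate block. With the number of the replicate as a block over 22 samples, fewer of all tested genes were called than on the same samples without it. S100b gained a call with this block (log2 fold change 0.29, edgeR adjusted p = 0.0433). Thus 1 of the 4 tested genes was called, against 0 on the same samples without the block. Over all genes the numbers showed no pairing: 11 same-numbered pairs had a mean correlation of deviations of -0.0059 (from -0.275 to 0.14). In this check 2 samples correlated best with their own number. A mean over all genes cannot settle pairing for a single gene, and the labels do not state any. S100b itself was highest in replicate 6 and lowest in replicate 7 of both groups. Leaving out each sample gave 0 of the 4 called in every case, with an adjusted p from 0.0595 (without air replicate 6) to 0.328 for S100b, 0.163 to 0.428 for Cnp and 0.172 to 0.416 for Pllp. S100b, Cnp and Pllp kept a positive sign in every setting that gave a value. A minimum count of 20 left no value for Pllp and Scn7a. Scn7a, near 0 as reported, was positive with DESeq2 (0.0047), limma voom (0.0080) and the clock covariate (0.075), was -0.27 without smoke replicates 2, 10 and 12, and ran from -0.14 to 0.099 when single samples were left out. The median log2 fold change of all genes was 0.0066, 0.0058 and 0.0083 under the 3 scalings.

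Over all genes, 195 calls became 323 with DESeq2 and 32 with the clock covariate, and 141 to 254 when single samples were left out. The myelin list had 4 calls as reported, 1 at a minimum count of 20 (4 genes tested) and on replicates 1 to 11, and 0 with limma voom, with the block, without smoke replicates 2, 10 and 12 and with the clock covariate. Leaving out single samples gave 1 to 5, with 1 or 2 without air replicates 1, 3, 4, 5, 7, 8, 9 and 10 and smoke replicates 2, 6, 10 and 12. The 6 other nerve lists had 1 call as reported, 3 with DESeq2 (Gldn, Cadm1 and Ednrb), 2 without a filter (Gldn and Jun), and 0 with the block, without the 3 smoke replicates and with the clock covariate. Gldn, the gene called as reported, failed the filter and had no test with the block, on replicates 1 to 11, without the 3 smoke replicates and at a minimum count of 20, so the 0 with the block and without the 3 replicates is no test of it. The call on replicates 1 to 11 was Lamb2 and that at a minimum count of 20 was Cadm1. These lists had 1 to 3 when single samples were left out, with 2 or 3 without air replicates 2 and 11 and smoke replicates 2, 4, 11 and 13. The 6 lists of other cell types and early genes had 1 call as reported, 0 with upper-quartile scaling, a minimum count of 20 and the clock covariate, 2 with DESeq2, limma voom and replicates 1 to 11, 3 without the 3 smoke replicates and 5 without a filter. They had 0 to 4 when single samples were left out, with 0 in 12 of 24 cases. The causes were not tested. Depth kept 6 of the 10 genes from being tested with the filter, and Cdh19 and Egr2 had 3 reads or fewer in most samples.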
